A study of Homo sapiens with 12 samples.

Results

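RASSF4 and 9 genes of the Hippo pathway were followed across a cell model of the PAX3-FKHR fusion protein. The genes were RASSF4, STK3, STK4, LATS1, YAP1, WWTR1, TEAD1, TEAD4, CCN1 and CCN2, which make 10 of the 11963 genes that the array annotation gives to at least 1 probe set under a single symbol. They were matched by symbol and cover 17 probe sets; a probe set is a group of short probes read as 1 value. RASSF4 was taken up because its signal was lower with drug treatment in an earlier look at these arrays, so the drug changes of these genes are given as a description with no test. The cells were RD, a line from an embryonal rhabdomyosarcoma, a childhood tumour of the skeletal muscle lineage. One set carried PAX3-FKHR-ER, the fusion protein joined to a modified oestrogen receptor ligand-binding domain, and the other carried the vector pK1 with no fusion. Each set was left untreated or given 30 nM 4-hydroxytamoxifen (4-OHT), the ligand that switches on such a receptor fusion, for 24 h; the labels name no vehicle. The 4 groups were PAX3-FKHR-ER with 4-OHT, PAX3-FKHR-ER without 4-OHT, pK1 with 4-OHT and pK1 without 4-OHT, with 3 arrays each. The design text speaks of 3 transduced populations per construct, and the labels do not say whether a replicate number marks one, so p-values measure only the spread between these samples.

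The Hippo pathway is a kinase cascade that limits growth. The kinases STK3 and STK4 (MST2 and MST1) activate LATS1, which phosphorylates the coactivators YAP1 and WWTR1 (TAZ) and keeps them out of the nucleus; free of that, both bind TEAD factors and raise target genes such as CCN1 and CCN2. RASSF4 is a Ras-association scaffold that binds MST kinases. It is known in alveolar rhabdomyosarcoma as a gene raised by PAX3-FOXO1, the present name of PAX3-FKHR, and as a brake on MST1 there. The arrays read RNA, while much of the cascade works through phosphorylation, which they do not measure.

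The promoters of RASSF4 and CCN2 are shown because RASSF4 opens the set and CCN2 is the textbook TEAD target. The sequences are RefSeq's, on GRCh38.p14, and run 5′ to 3′ on the gene's strand over the 250 bases before its start, at chr10:44959552-44959801 on the plus strand for RASSF4 and at chr6:131951373-131951622 on the minus strand for CCN2. Capitals mark GGAATG, read on both strands as the core of a TEAD site, in CCN2, and CAGCTG, an E-box of the kind that myogenic factors bind and its own reverse complement, in RASSF4.
RASSF4: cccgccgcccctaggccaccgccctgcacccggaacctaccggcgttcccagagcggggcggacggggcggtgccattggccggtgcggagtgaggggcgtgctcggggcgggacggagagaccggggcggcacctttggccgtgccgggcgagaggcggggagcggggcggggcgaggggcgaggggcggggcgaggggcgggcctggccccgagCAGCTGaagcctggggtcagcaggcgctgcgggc
CCN2: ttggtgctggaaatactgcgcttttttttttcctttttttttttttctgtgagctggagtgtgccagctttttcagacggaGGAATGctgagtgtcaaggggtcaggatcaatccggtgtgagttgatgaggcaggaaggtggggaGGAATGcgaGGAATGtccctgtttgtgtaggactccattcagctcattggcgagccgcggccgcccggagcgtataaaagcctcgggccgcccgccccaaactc
The CCN2 window held 3 copies of GGAATG, at 169, 104 and 95 bases before the start, and no CAGCTG. The RASSF4 window held 1 CAGCTG, 34 bases before the start, and no GGAATG. Of 35116 promoter windows of that length, 4175 (11.9%) held GGAATG on either strand, 29 (0.0826%) held it at least 3 times and 4911 (14.0%) held CAGCTG. The table held 8 windows for 6 of the genes, and the only other match was 1 GGAATG, 162 bases before the start of YAP1. A match is a run of letters and shows no binding.

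The 4 arrays numbered replicate 1 stood apart from the other 8. Their spiked-in poly-A control signals had medians of 2.58 to 7.41, against 117.5 to 291.0 on the other arrays, and they correlated at 0.957 to 0.982 among themselves but at 0.815 to 0.869 with the rest, over 13329 probe sets. The other 8 arrays correlated at 0.867 to 0.982 among themselves. The lowest of these lay within the range between replicate 1 and the rest, so the 8 were not a tight group. The genes of the fusion also differed by number. At probe set 202723_s_at of FOXO1 (FKHR), signals with 4-OHT were 78.3 and 83.9 in PAX3-FKHR-ER replicates 2 and 3 and 42.4 and 46.0 in pK1, and without 4-OHT they were 146 and 124 against 52.1 and 36.1. In replicate 1 the FOXO1 signals were 138 in PAX3-FKHR-ER and 121 in pK1 with 4-OHT, and 142 in PAX3-FKHR-ER and 214 in pK1 without it. PAX3 (207680_x_at) in replicates 2 and 3 with 4-OHT was at 92.7 and 73.1 in PAX3-FKHR-ER and at 41.5 and 49.96 in pK1. Without 4-OHT it was at 98.9 and 105 in PAX3-FKHR-ER and at 41.5 and 30.6 in pK1. In replicate 1 PAX3 was at 58.9 in PAX3-FKHR-ER and 57.8 in pK1 with 4-OHT. Without 4-OHT it was at 17.6 in PAX3-FKHR-ER and 49.4 in pK1 there. The second tested FOXO1 probe set, 202724_s_at, ran the other way. In replicates 2 and 3 it was lower in PAX3-FKHR-ER, at 3.71 and 16.4 against 56.4 and 36.6 in pK1 with 4-OHT, and at 59.9 and 19.7 against 61.5 and 48.4 in pK1 without it. In replicate 1 it was higher in PAX3-FKHR-ER, at 257 against 69.5 in pK1 with 4-OHT and 313 against 198 in pK1 without it. In replicates 2 and 3, FOXO1 at 202723_s_at and PAX3 at 207680_x_at were thus higher in PAX3-FKHR-ER, and FOXO1 at 202724_s_at was lower. In replicate 1 without 4-OHT these directions were reversed at each probe set. As their directions differ, these probe sets do not settle the construct labels of any replicate. Whether they read the introduced fusion was not tested. Values are therefore given per array and again for replicates 2 and 3, and constructs are named as labelled. Of 8 muscle-lineage markers 7 lay above the signal cutoff; MYF5 was the exception, at 0.814 to 15.5. Their summed signals ran from 3159 to 5040 in PAX3-FKHR-ER with 4-OHT, against 2915 to 5776 without it, and from 766 to 4636 in pK1 with 4-OHT, against 922 to 4129 without it. No marker of epithelium (4 on the array) or of leukocytes (3) lay above the cutoff, and PECAM1 did of 2 endothelial ones.

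RASSF4, which lies at chr10:44959802-44995891 on GRCh38.p14, was low with 4-OHT in the cells labelled PAX3-FKHR-ER, and high without it in replicates 2 and 3. The array carries 2 probe sets for it; the brighter, 49306_at, stands for the gene below. Its signals on the linear intensity scale were 30.7, 31.9 and 43.9 in replicates 1, 2 and 3 of PAX3-FKHR-ER with 4-OHT, against 36.7, 129 and 93.9 without it. With 4-OHT all 3 arrays lay close together, and without it 2 of 3 lay far above them and replicate 1 within their range. In pK1 the signals were 18.5, 18.5 and 110 with 4-OHT and 21.7, 17.3 and 93.1 without it. Here replicate 3 was high and replicates 1 and 2 were low, whichever the treatment.

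The group means of 49306_at were 35.5 ± 7.3 in PAX3-FKHR-ER with 4-OHT, 86.5 ± 46.5 without it, 49.1 ± 53.0 in pK1 with 4-OHT and 44.0 ± 42.6 in pK1 without it (SD, n = 3 each). In falling order the means ran PAX3-FKHR-ER without 4-OHT, pK1 with, pK1 without and PAX3-FKHR-ER with 4-OHT, and every neighbouring pair in that order differed by less than the larger SD of the pair. On the log2(signal + 16) scale, used for all differences here because it damps noise in dim signals, the value with 4-OHT minus that without it, here called the pair difference, was -0.17, -1.60 and -0.87 in PAX3-FKHR-ER replicates 1, 2 and 3, and -0.13, 0.05 and 0.21 in pK1. All 3 pairs of PAX3-FKHR-ER were below 0, pair 1 by about as little as the pK1 pairs. In replicates 2 and 3 the signals averaged 37.9 ± 8.5 in PAX3-FKHR-ER with 4-OHT, against 111 ± 24.7 without it (SD, n = 2 each). In pK1 they averaged 64.4 ± 64.9 with 4-OHT, against 55.2 ± 53.6 without it (SD, n = 2 each). The pK1 SDs come from the gap between replicates 2 and 3, which was there with and without 4-OHT. The mean pair difference was -0.88 over 3 pairs and -1.24 over pairs 2 and 3 in PAX3-FKHR-ER, against 0.05 and 0.13 in pK1.

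**Figure D1:**
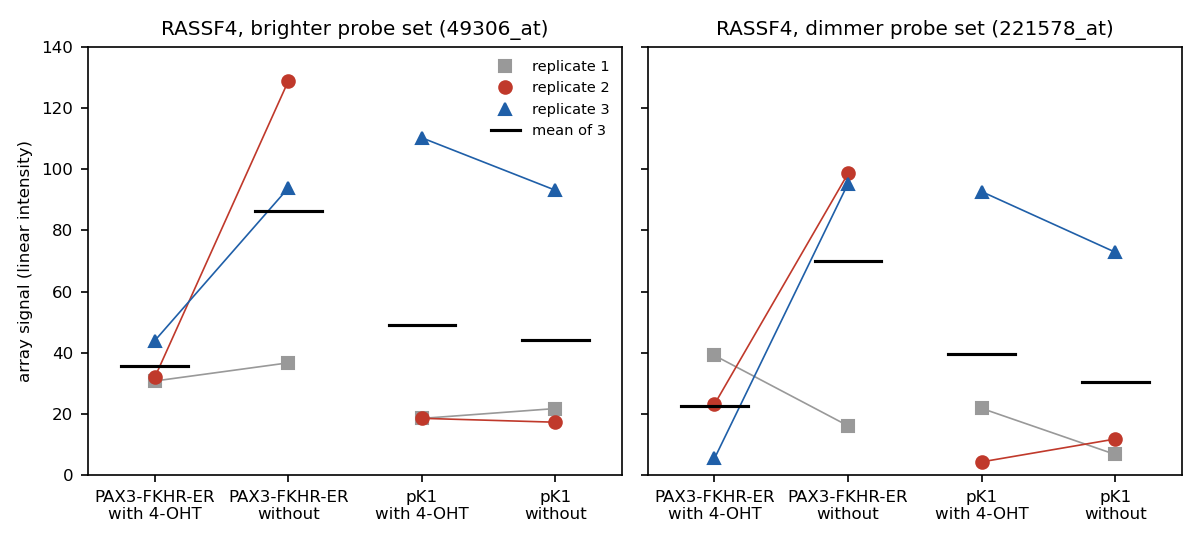
RASSF4 signal (linear intensity, y axis) on each of 12 arrays for both of its probe sets, by group along the x axis; lines join arrays of the same construct and replicate number, and black bars are means of 3. In PAX3-FKHR-ER replicates 2 and 3 the signal is lower with 4-OHT than without it at both probe sets, and in pK1 replicate 3 lies far above replicates 1 and 2.

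The dimmer RASSF4 probe set, 221578_at, differed in replicate 1. Its signals were 39.1, 23.2 and 5.42 in PAX3-FKHR-ER with 4-OHT, against 16.1, 98.6 and 95.3 without it, and 21.8, 4.29 and 92.7 in pK1 with 4-OHT, against 6.72, 11.8 and 72.9 without it. The PAX3-FKHR-ER pair differences were 0.78, -1.55 and -2.38 on the log2(signal + 16) scale, so both probe sets were lower with 4-OHT in pairs 2 and 3, and they had opposite signs in pair 1. The pK1 pair differences were 0.73, -0.45 and 0.29. Over the 8 arrays of replicates 2 and 3 the log2 signals of the 2 probe sets had a Pearson r of 0.919, and these arrays share constructs and treatments.

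The kinases STK3 and STK4 had pair differences of -0.45 to 0.52 at their brighter probe sets. STK3 (204068_at) had signals of 114, 69.6 and 125 in PAX3-FKHR-ER with 4-OHT, against 116, 72.4 and 82.2 without it. In pK1 it had 113, 106 and 84.6 with 4-OHT, against 94.7, 71.6 and 79.1 without it. The ranges overlapped in PAX3-FKHR-ER, where the pair differences were -0.02, -0.05 and 0.52, and all 3 pK1 pairs were above 0, at 0.22, 0.48 and 0.08. The related kinase STK4 (205411_at, chr20:44966512-45080021) leaned the other way. Its signals were 48.2, 64.8 and 53.5 in PAX3-FKHR-ER with 4-OHT, against 54.1, 88.4 and 53.2 without it, and 52.0, 44.9 and 49.5 in pK1 with 4-OHT, against 68.3, 67.0 and 51.8 without it. The STK4 ranges with and without 4-OHT overlapped in both constructs, with pair differences of -0.13, -0.37 and 0.01 in PAX3-FKHR-ER and -0.31, -0.45 and -0.05 in pK1. The second probe sets of STK3 and STK4 were too dim to test, at 1.56 to 16.5 and 7.09 to 32.2.

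LATS1 (219813_at, chr6:149658153-149718101), the kinase that acts directly on YAP1 and WWTR1, was the 1 gene with no probe set bright enough to test, the cutoff being a mean signal of 36.7 over all arrays. Its signals were 24.6, 30.4 and 43.5 in PAX3-FKHR-ER with 4-OHT, against 45.0, 47.5 and 25.9 without it, and 29.1, 23.1 and 19.8 in pK1 with 4-OHT, against 57.4, 34.6 and 29.2 without it. In PAX3-FKHR-ER the pair differences were -0.59, -0.45 and 0.51 and the ranges overlapped. In pK1 all 3 pairs were lower with 4-OHT, at -0.70, -0.37 and -0.34, and the ranges met without overlapping.

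YAP1 (213342_at, chr11:102110447-102233424), the coactivator that gives the pathway its read-out, had pair differences within 0.27 of 0 in both constructs. It had 121, 100 and 134 in PAX3-FKHR-ER with 4-OHT, against 117, 94.7 and 111 without it, and 102, 60.9 and 154 in pK1 with 4-OHT, against 81.4, 67.4 and 125 without it. The pair differences were 0.04, 0.07 and 0.24 in PAX3-FKHR-ER and 0.27, -0.12 and 0.27 in pK1. Its spread was wider between pK1 replicates than between treatments, with replicate 2 lowest and replicate 3 highest.

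WWTR1, chr3:149517235-149724788, encodes the partner coactivator TAZ and carries 3 probe sets. The brightest, 202133_at, had 828, 397 and 445 in PAX3-FKHR-ER with 4-OHT, against 863, 601 and 523 without it. In pK1 it had 622, 179 and 617 with 4-OHT, against 640, 198 and 584 without it. The pair differences were -0.06, -0.58 and -0.23 in PAX3-FKHR-ER and -0.04, -0.13 and 0.08 in pK1, and pK1 replicate 2 lay far below every other array. The other probe sets had pair differences of 0.11, -0.41 and -0.03 (202132_at) and 0.23, -0.09 and -0.33 (202134_s_at) in PAX3-FKHR-ER, so the 3 probe sets shared a direction in pairs 2 and 3 but not in pair 1. In pK1 they were at -0.21, 0.05 and -0.19 (202132_at) and -0.30, -0.59 and -0.16 (202134_s_at). At 202134_s_at the mean pair difference was -0.06 in PAX3-FKHR-ER and -0.35 in pK1, the reverse of the order at 202133_at (-0.29 and -0.03).

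TEAD1 (214600_at, chr11:12674421-12944737), one of the DNA-binding partners of both coactivators, was higher in PAX3-FKHR-ER than in pK1 on every array with 4-OHT. Its signals were 49.9, 62.3 and 60.7 in PAX3-FKHR-ER with 4-OHT and 21.9, 24.3 and 37.1 in pK1 with 4-OHT; without 4-OHT they were 34.3, 53.6 and 63.1 in PAX3-FKHR-ER and 39.8, 22.5 and 46.3 in pK1. With 4-OHT the constructs did not overlap, and without it they did. The pair differences for 4-OHT were 0.39, 0.17 and -0.05 in PAX3-FKHR-ER and -0.56, 0.06 and -0.23 in pK1.

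TEAD4 (204281_at, chr12:2959397-3040676), a TEAD factor known from myoblast differentiation, was lower with 4-OHT in all 3 PAX3-FKHR-ER pairs. The signals were 663, 250 and 323 with 4-OHT, against 848, 443 and 410 without it, and 803, 273 and 652 in pK1 with 4-OHT, against 883, 270 and 638 without it. The pair differences were -0.35, -0.79 and -0.33 in PAX3-FKHR-ER and -0.13, 0.02 and 0.03 in pK1. Replicate 1 was the brightest array in every group. In PAX3-FKHR-ER the ranges with and without 4-OHT overlapped only through it. In pK1 they also overlapped in replicates 2 and 3 alone. The second TEAD4 probe set, 41037_at, had pair differences of 0.12, -0.42 and -0.36 in PAX3-FKHR-ER, with the sign of the brighter one in pairs 2 and 3 only.

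The targets CCN1 and CCN2, which encode secreted matricellular proteins, had opposite signs in PAX3-FKHR-ER pairs 2 and 3. CCN1 (formerly CYR61; 201289_at, chr1:85580761-85583950) had 207, 356 and 530 in PAX3-FKHR-ER with 4-OHT, against 134, 276 and 327 without it, and 679, 191 and 408 in pK1 with 4-OHT, against 247, 192 and 409 without it. All 3 PAX3-FKHR-ER pairs were higher with 4-OHT, at 0.57, 0.35 and 0.67. In pK1, pair 1 was at 1.40, while pairs 2 and 3 were at -0.01 and 0.00. The other CCN1 probe set, 210764_s_at, had pair differences of 0.89, -0.56 and 0.80 in PAX3-FKHR-ER and of 0.96, 0.19 and -0.18 in pK1, so it went against the brighter one in PAX3-FKHR-ER pair 2.

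CCN2 (formerly CTGF; 209101_at, chr6:131948176-131951372), whose promoter with 3 GGAATG copies is printed above, had 102, 10.6 and 55.3 in PAX3-FKHR-ER with 4-OHT, against 75.7, 56.0 and 112 without it. In pK1 it had 62.4, 38.0 and 152 with 4-OHT, against 71.4, 52.4 and 182 without it. The pair differences were 0.36, -1.44 and -0.85 in PAX3-FKHR-ER and -0.16, -0.34 and -0.24 in pK1. CCN2 was thus lower with 4-OHT in pairs 2 and 3 of both constructs, by more in PAX3-FKHR-ER; that gap was not tested, because 4-OHT differences chose the set. Group means were 55.8 ± 45.5 in PAX3-FKHR-ER with 4-OHT, against 81.3 ± 28.5 without it, and 84.0 ± 59.8 in pK1 with 4-OHT, against 102 ± 69.9 without it (SD, n = 3 each).

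**Figure D2:**
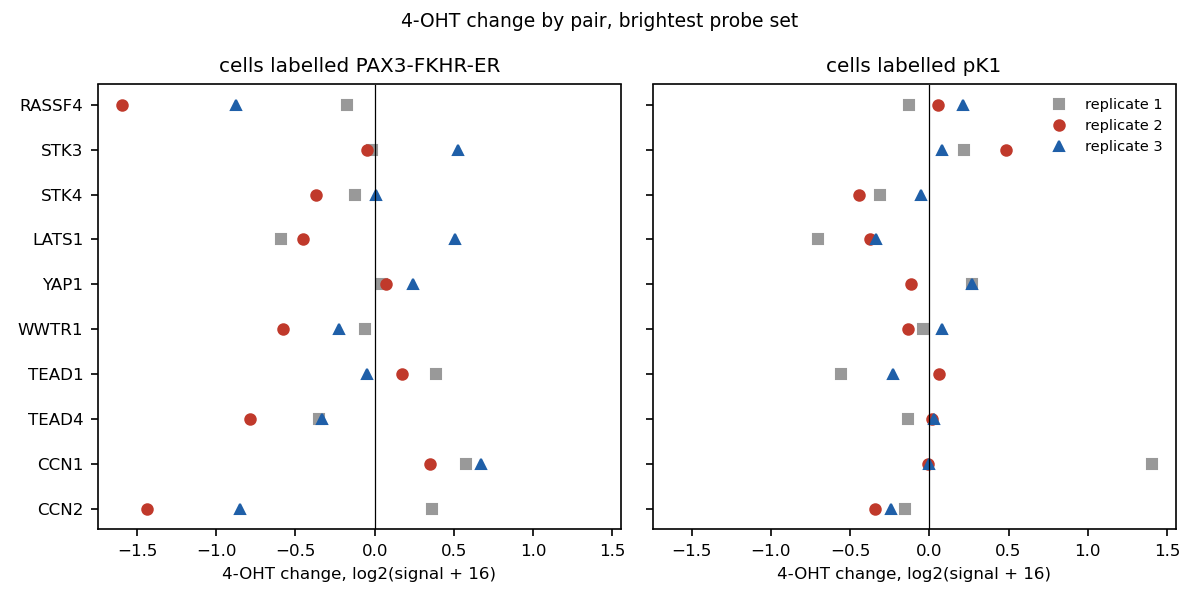
The 4-OHT pair difference, log2(signal + 16) with minus without 4-OHT, of each of 10 genes at its brightest probe set (x axis), in cells labelled PAX3-FKHR-ER on the left and pK1 on the right; each point is 1 pair of arrays. RASSF4, WWTR1 and TEAD4 lie below 0 and YAP1 and CCN1 above 0 in all 3 PAX3-FKHR-ER pairs, and RASSF4 and CCN2 in pairs 2 and 3 reach -1.60 and -1.44.

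Over all probe sets, limma's test on 12 arrays called 0.0% of 13329 for 4-OHT in PAX3-FKHR-ER (adjusted p under 0.05, Benjamini-Hochberg; 62 at an unadjusted p under 0.05), 0.0% for 4-OHT in pK1 (72 unadjusted) and 0.0% for the difference between the 2 changes (39 unadjusted). With replicates 2 and 3 alone and array pairs as a block, limma called 1.4% for 4-OHT in PAX3-FKHR-ER (186 probe sets, 106 up and 80 down), 0.0% in pK1 (760 unadjusted) and 0.0525% for the difference (7). Nothing is read from these for the members, which were chosen on those contrasts.

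Between constructs, TEAD1 with 4-OHT and RASSF4 without it showed the largest positive differences among the 9 genes tested, and none passed. Comparing PAX3-FKHR-ER with pK1 at the same treatment asks how the cells differed before and after activation, and uses the same arrays in another combination. Without 4-OHT, RASSF4 was 0.87 ± 0.59 (SE) on the log2(signal + 16) scale at 49306_at and 0.96 ± 0.73 at 221578_at, both with limma adjusted p = 1.0 over 12 arrays. The 3 same-numbered RASSF4 differences were 0.48, 2.12 and 0.01 at 49306_at, so replicate 2 supplied most of it. At 221578_at the pK1 group mean without 4-OHT was 30.5, below the signal cutoff, against 70.0 in PAX3-FKHR-ER. With 4-OHT its means were 22.6 in PAX3-FKHR-ER and 39.6 in pK1. This probe set thus entered the test mainly through the group where it was higher. RASSF4 was also chosen on 4-OHT differences, which use the same arrays without 4-OHT. The RASSF4 p-values between constructs are therefore a description only. WWTR1 was 0.60 ± 0.53 (0.28 and 0.30 at its other probe sets), TEAD1 0.35 ± 0.27, YAP1 0.23 ± 0.30, CCN1 -0.21 ± 0.49 and CCN2 -0.16 ± 0.59. Without pK1 replicate 2 of that treatment, RASSF4 was at 0.56, WWTR1 at 0.081, TEAD1 at 0.15 and YAP1 at 0.070; without pK1 replicate 3, RASSF4 was at 1.41 and YAP1 at 0.45. Of the 9 genes 7 lay higher and 2 lower in PAX3-FKHR-ER, 0 passed limma's test and 0 had an unadjusted p under 0.05, against 0.0% called of all 13329 probe sets (277 unadjusted).

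With 4-OHT, TEAD1 was 0.76 ± 0.27 higher in PAX3-FKHR-ER, in 3 of 3 replicates (0.80, 0.96 and 0.53), with an unadjusted limma p of 0.0165 and a limma adjusted p of 1.0. TEAD1 is dim. Its group means with and without 4-OHT were 57.6 and 50.4 in PAX3-FKHR-ER, and 27.7 and 36.2 in pK1. Both pK1 means lay below the signal cutoff of 36.7. TEAD1 thus entered the test through the construct where it was higher, and its p is a description only. RASSF4 with 4-OHT was -0.06 ± 0.59, with same-numbered differences of 0.44, 0.47 and -1.08, so replicate 3 went against the other 2. CCN2 was -0.56 ± 0.59, TEAD4 -0.46 ± 0.53, WWTR1 0.34 ± 0.53 and CCN1 -0.14 ± 0.49. In this contrast 4 genes lay higher and 5 lower, 0 passed limma's test and 1 had an unadjusted p under 0.05, against 0.0% called of all probe sets (267 unadjusted). These SEs leave room for differences in either direction for RASSF4, WWTR1, TEAD4, CCN1 and CCN2.

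In replicates 2 and 3 alone, the construct differences of CCN1 and CCN2 with 4-OHT shifted most. CCN2 with 4-OHT was -1.13 ± 0.75 without a block and -1.13 ± 0.28 with the replicate number as a block. In that paired fit its limma adjusted p of 0.201 was the smallest of any member between constructs in the fits run. The CCN2 signals behind it were 10.6 and 55.3 in PAX3-FKHR-ER and 38.0 and 152 in pK1. The PAX3-FKHR-ER mean of 32.9 lay below the signal cutoff, at the only CCN2 probe set. Both same-numbered differences were below 0, at -1.02 and -1.23. With signals this dim, the CCN2 p is a description only. CCN1 with 4-OHT was 0.61 ± 0.25 in that paired fit (limma adjusted p = 0.382), against -0.14 over 12 arrays. Its sign thus rested on replicate 1, where pK1 with 4-OHT had the highest CCN1 signal of all. The other CCN1 probe set, 210764_s_at, was at 0.40 ± 0.35 in the paired fit (limma adjusted p = 0.676). TEAD1 was 0.74 ± 0.30 (limma adjusted p = 0.363) with 4-OHT, and RASSF4 without 4-OHT was 1.07 ± 0.57 (limma adjusted p = 0.577). In these paired fits 0.158% of all probe sets were called with 4-OHT and 0.0075% without it, and 0 of 9 members in each. At an unadjusted limma p under 0.05 there were 3 members, each at its brightest probe set, and 1732 probe sets in all with 4-OHT. Without it there were 0 members and 1299 probe sets. CCN1 was 1 of the 3, and its other probe set was not under 0.05. These paired fits take arrays of 1 construct and number, with and without 4-OHT, as separate beyond the replicate number. In replicates 2 and 3 such arrays deviated together at r of 0.703 to 0.817, and same-numbered arrays of different constructs at 0.152 to 0.459. The SEs of the paired fits may thus be too small.

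**Figure D3:**
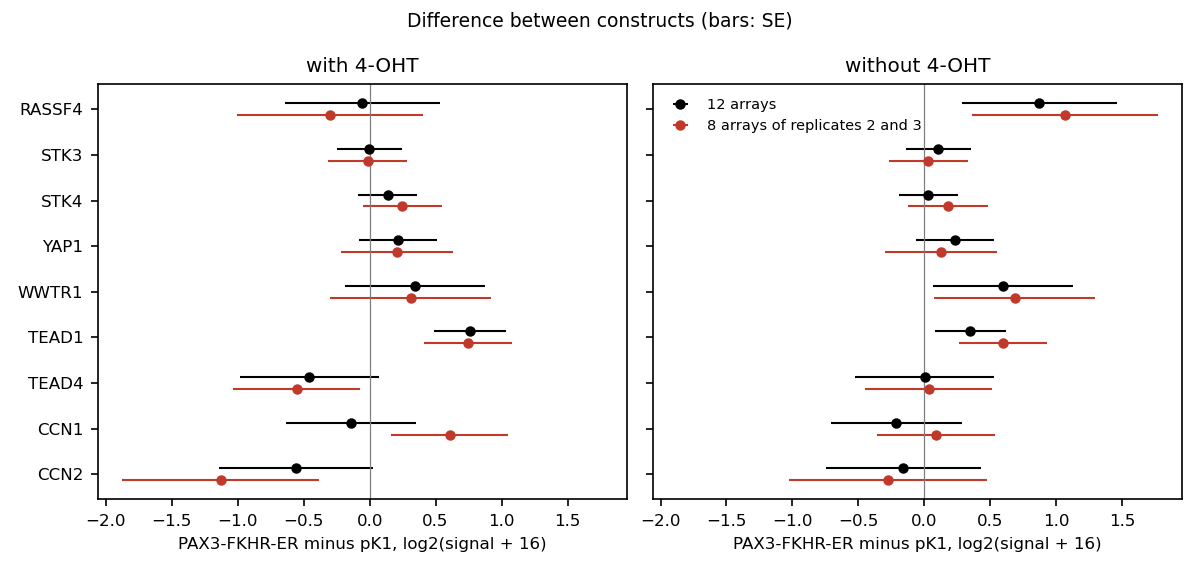
PAX3-FKHR-ER minus pK1, log2(signal + 16), for 9 tested genes with 4-OHT on the left and without it on the right; points are limma estimates over 12 arrays (black) and over the 8 arrays of replicates 2 and 3 without a block (red), and bars are 1 SE. TEAD1 with 4-OHT lies at 0.76 and 0.74, and CCN1 with 4-OHT changes sign between the 2 sets of arrays.

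The rest of the pathway was read through 5 lists, leaving the 10 genes out. The lists hold textbook members of it, but they were drawn up with earlier results of these arrays known, so their counts are a description and no independent evidence about any list. In the 12-array fits none of the listed genes passed limma's test in any of 5 contrasts (each 0.0% of all probe sets). For 4-OHT in PAX3-FKHR-ER, where the paired fit of replicates 2 and 3 called 1.4% of all probe sets, 3 genes passed, and each was a listed YAP and TAZ target; of 12 targets tested 1 rose, 2 fell and 9 did not pass. That fit had been chosen after the 12-array counts were known, and the same 8 arrays without the block gave 0 calls in limma for 4-OHT in PAX3-FKHR-ER (270 at an unadjusted p under 0.05) and 0 in the lists.

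GADD45A (203725_at), a growth arrest and stress gene, rose by 0.98 ± 0.12 (SE; limma adjusted p = 0.00864). Its signals were 360, 1130 and 1652 in PAX3-FKHR-ER with 4-OHT, against 293, 608 and 769 without it, and 797, 283 and 582 in pK1 with 4-OHT, against 332, 296 and 596 without it. The PAX3-FKHR-ER pairs were all up, and of the pK1 pairs only pair 1 was, by 1.23. IGFBP3 (210095_s_at), a secreted binding protein of insulin-like growth factors, fell by 1.25 on the log2 scale, with an SE of 0.20 (limma adjusted p = 0.0228). It had 158, 19.6 and 37.2 in PAX3-FKHR-ER with 4-OHT, against 171, 76.8 and 99.1 without it, and 85.9, 51.9 and 169 in pK1 with 4-OHT, against 189, 56.1 and 180 without it. All its PAX3-FKHR-ER and pK1 pairs were below 0; its second probe set, 212143_s_at, had pair differences of 0.29, -0.28 and -1.25 in the 3 pairs and did not pass. MYOF (201798_s_at), myoferlin, a membrane repair protein of muscle, fell by 0.77, with an SE of 0.14 (limma adjusted p = 0.0397). MYOF had 347, 172 and 274 in PAX3-FKHR-ER with 4-OHT, against 242, 275 and 528 without it, and 434, 216 and 570 in pK1 with 4-OHT, against 354, 227 and 483 without it. Its PAX3-FKHR-ER pair 1 was above 0, at 0.49. Its second probe set, 211864_s_at, had pair differences of 0.56, -0.41 and -0.79 and did not pass.

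For none of these 3 targets did the 4-OHT response differ between constructs past the threshold in the paired fit: PAX3-FKHR-ER minus pK1 was 1.03 for GADD45A (limma adjusted p = 0.0863), -1.16 for IGFBP3 (limma adjusted p = 0.223) and -0.85 for MYOF (limma adjusted p = 0.206), so a response particular to PAX3-FKHR-ER was not shown. The median over the 12 was -0.08 in the paired fit, with 5 above 0 and 7 below, against -0.03 over all tested genes. Among those that did not pass, NT5E, an ecto-nucleotidase, was at 0.53 in PAX3-FKHR-ER and also at 0.53 in pK1, while AMOTL2 and the receptor kinase AXL were below 0 in PAX3-FKHR-ER, at -0.56 and -0.48.

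The 9 tested kinases and scaffolds had a median 4-OHT change of -0.18 in the paired fit of PAX3-FKHR-ER, 2 above 0 and 7 below, against -0.03 over all genes, and none passed. WWC1 (KIBRA, an upstream scaffold; 213085_s_at) had 23.4, 49.6 and 14.6 in PAX3-FKHR-ER with 4-OHT, against 21.8, 119 and 44.6 without it, a change of -1.01 ± 0.24 (limma adjusted p = 0.0987). AMOTL2, an angiomotin that tethers YAP1 and is also a listed target, was at -0.56, SAV1, the adaptor of STK3 and STK4, at 0.07, and MAP4K4, a kinase parallel to them, at 0.43. Between constructs with 4-OHT all 9 of this list were below 0 over 12 arrays, with a median of -0.32 against 0.00 over all genes, and without 4-OHT 7 of 9 were, with a median of -0.24 against -0.02. None passed in either. With 4-OHT 9 of 9 were below 0 after quantile normalization, and in the paired fits 8 of 9 were with and 8 of 9 without 4-OHT. With 4-OHT over 12 arrays, the median of 0.00 puts about as many of all genes below 0 as above. All these counts come from the same arrays, so neither the genes nor the fits are separate evidence.

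The 3 other RASSF genes tested, which share its Ras-association domain, were at -0.06 (RASSF2), -0.03 (RASSF1) and 0.07 (RASSF7) in the paired fit of PAX3-FKHR-ER, and 0 passed. Of 6 inhibitors of the cascade 0 passed, with a median of -0.08; STRN3, PPP2CA and STRN, of the phosphatase complex that acts on MST kinases, were at -0.17, -0.09 and -0.05 and its scaffold PPP2R1A at 0.52 (limma adjusted p = 0.102). With 4-OHT all 6 inhibitors were higher in PAX3-FKHR-ER than in pK1 over 12 arrays (6 of 6 after quantile normalization). Their median was 0.18, against -0.0012 over all genes. Without 4-OHT 4 of 6 were higher, with a median of 0.19 against -0.02 over all genes. None passed, and these genes share the same arrays, so their counts are not separate evidence. Among the remaining TEAD and VGLL genes, VGLL4, which competes with YAP1 for TEAD factors, was at -0.20, TEAD3 at 0.16 and VGLL3, another TEAD cofactor, at 0.42, and 0 of 3 passed.

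**Figure D4:**
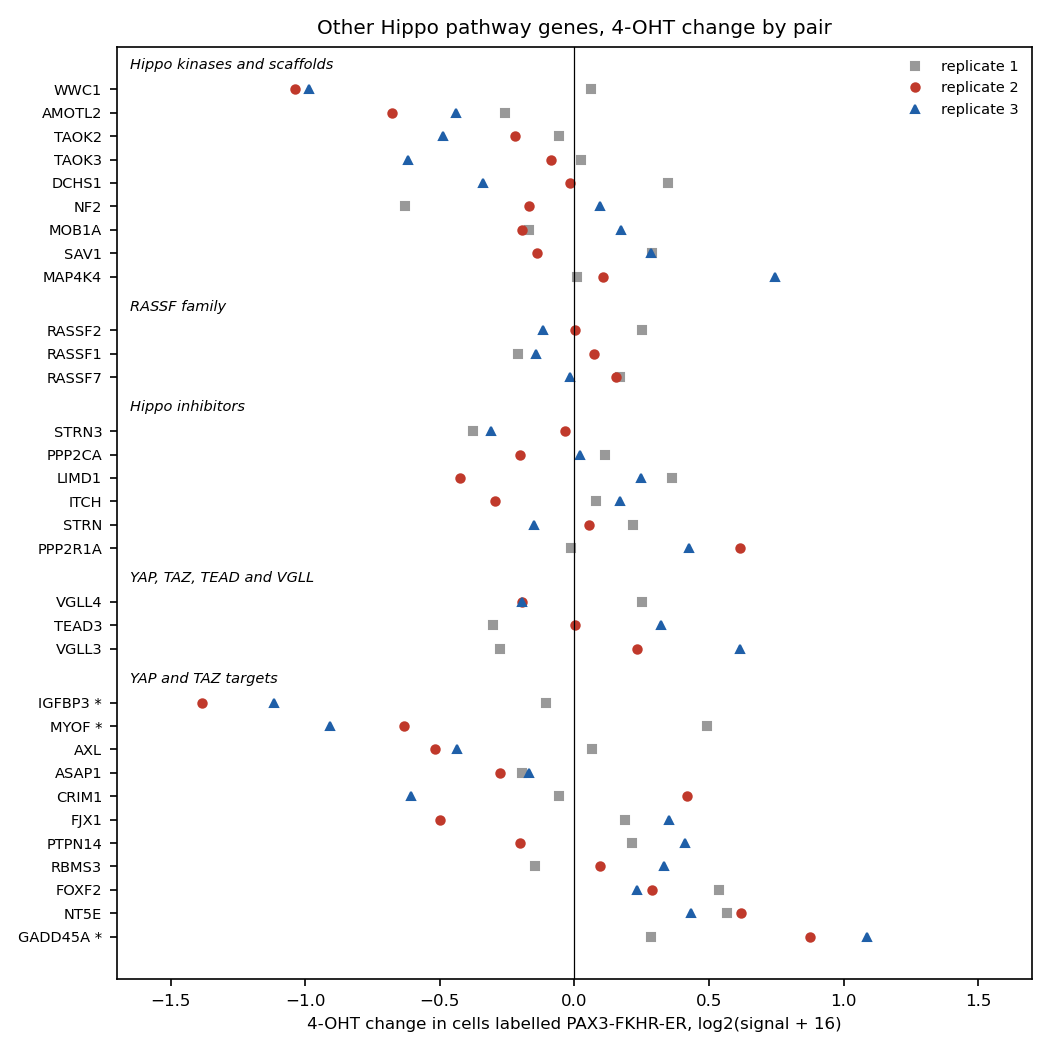
The 4-OHT change in cells labelled PAX3-FKHR-ER, log2(signal + 16), of the tested pathway genes outside the set of 10, grouped by list, AMOTL2 being drawn once; each point is 1 pair of arrays, and an asterisk marks adjusted p under 0.05 in limma's paired fit of replicates 2 and 3. GADD45A lies right of 0 in all 3 pairs, and IGFBP3, MYOF and WWC1 lie left of 0 in pairs 2 and 3, MYOF with pair 1 at 0.49.

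The genes whose signal ran most like that of RASSF4 were found by Pearson r of log2(signal + 16) with 49306_at over the 8 arrays of replicates 2 and 3. The 5 closest probe sets were of NCK1, an adaptor of receptor tyrosine kinases (r = 0.984), PHLDA1 at 2 probe sets (0.980 and 0.977), MAP2K1, the kinase MEK1 (0.979), and DUSP4, a MAP kinase phosphatase (0.977). MAP2K1 had 867 and 949 in replicates 2 and 3 of PAX3-FKHR-ER with 4-OHT, against 2366 and 1637 without it, and 719 and 1993 in pK1 with 4-OHT, against 817 and 1746 without it. DUSP4 had 50.3 and 41.6 in PAX3-FKHR-ER with 4-OHT, against 246.7 and 133.4 without it, and 11.3 and 240.0 in pK1 with 4-OHT, against 20.1 and 200.8 without it. In replicates 2 and 3 both shared with RASSF4 the lower signal with 4-OHT in PAX3-FKHR-ER and the gap between the pK1 replicates. Replicate 1, which the r left out, differed. There DUSP4 was at 263 with and 233 without 4-OHT in PAX3-FKHR-ER, and MAP2K1 at 667 and 649. RASSF4 was at 30.7 and 36.7 on those arrays. Against the dimmer RASSF4 probe set r was 0.865 for NCK1, 0.873 and 0.921 for PHLDA1, 0.944 for MAP2K1 and 0.946 for DUSP4.

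The 8 muscle-lineage markers did not run alike over these arrays. MYOG, the factor of terminal muscle differentiation, had r = 0.949 with RASSF4 over the 8 arrays and DES, the muscle intermediate filament, 0.909. No r was computed for the other markers, so how typical these values are is not known. MYOG had 20.8 and 19.7 in replicates 2 and 3 of PAX3-FKHR-ER with 4-OHT, against 298 and 172 without it, and 8.82 and 101 in pK1 with 4-OHT, against 10.3 and 94.9 without it. DES had 316 and 343 in PAX3-FKHR-ER with 4-OHT, against 499.9 and 466 without it, and 85.6 and 862 in pK1 with 4-OHT, against 89.0 and 710.4 without it. MYOD1, the master factor of the lineage, had 1912 and 1809 in PAX3-FKHR-ER with 4-OHT, against 1380 and 1111 without it, and 197 and 322 in pK1 with 4-OHT, against 222 and 367 without it. MYOD1 was thus higher with 4-OHT in these PAX3-FKHR-ER pairs, where RASSF4 was lower. CDH15, a muscle cadherin, had 330 and 394 in PAX3-FKHR-ER with 4-OHT, against 471 and 243 without it. In pK1 it had 106 and 220 with 4-OHT, against 112 and 232 without it. CAV3, muscle caveolin, had 185 and 56.9 in PAX3-FKHR-ER with 4-OHT, against 207 and 71.7 without it. In pK1 CAV3 had 24.7 and 56.2 with 4-OHT, against 66.5 and 81.1 without it. CAV3, like RASSF4, was thus lower with 4-OHT in these PAX3-FKHR-ER pairs, and both markers were higher in pK1 replicate 3 than in replicate 2. CHRNA1 had 2044 and 1950 in PAX3-FKHR-ER replicates 2 and 3 with 4-OHT, against 2560 and 1750 without it. In pK1 it had 245 and 1950, against 344 and 1974. MYL4 had 217 and 166 in PAX3-FKHR-ER with 4-OHT, against 359 and 234, and 94.4 and 543 in pK1, against 76.3 and 667. In PAX3-FKHR-ER replicate 1, MYOG was at 53.0 with and 13.4 without 4-OHT, and DES at 210 and 157. The part of these markers in the RASSF4 values was not tested, and in such bulk RNA fewer cells of a kind and less RNA per cell cannot be told apart.

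**Figure D5:**
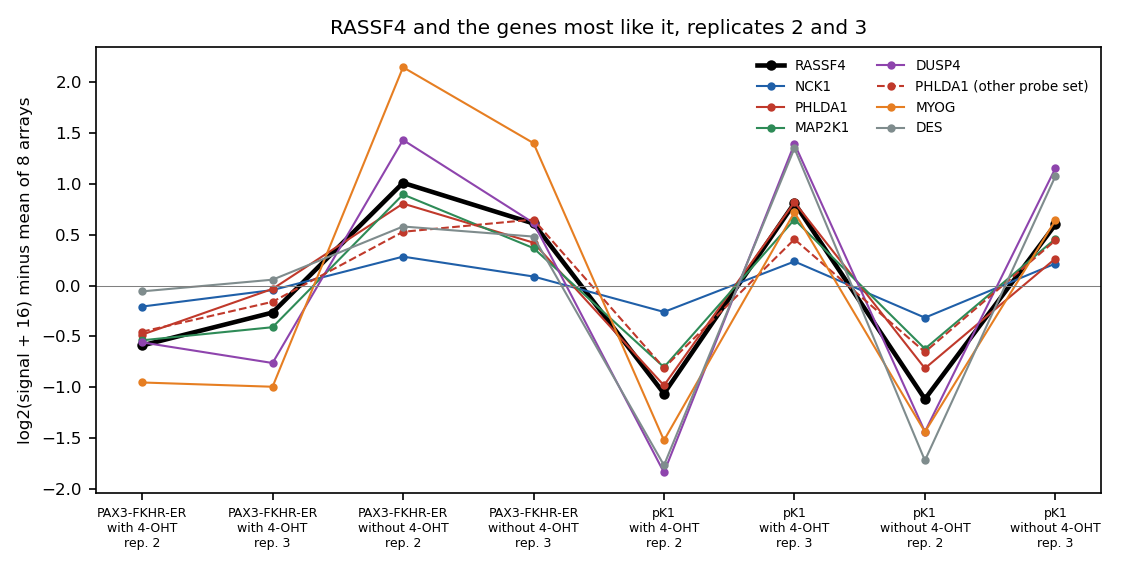
Log2(signal + 16) of RASSF4, of the 5 probe sets most like it and of the markers MYOG and DES, minus each probe set's mean over the 8 arrays of replicates 2 and 3 (y axis), by array (x axis); lines only join the points of 1 probe set. RASSF4 is high in PAX3-FKHR-ER without 4-OHT and in pK1 replicate 3 and low elsewhere, and the other lines have r of 0.909 or more with it. DES, of the lowest r, lies near its mean in PAX3-FKHR-ER with 4-OHT and far below it only in pK1 replicate 2.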

How the data were processed

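RNA of 12 samples was measured on Affymetrix U133A arrays. Each deposited value is a linear intensity per probe set. The submitters' processing notes name GCOS and MAS5 for it; their versions and scaling target are not given in the sources used here. MAS5 sets whole arrays to a common level, so a change in total RNA would not show. The signals were not scaled again. Of 22283 probe sets 68 controls were left out, 19065 had 1 symbol, 1043 several and 2107 none; only the first were named. After adding 16 and taking log2, the 40% with the lowest mean signal were left out (cutoff 36.7), leaving 13329 probe sets of 8124 genes. The 4 group means were fitted with limma 3.58.1 in R 4.3.3 (lmFit, eBayes with intensity trend), two-sided, with Benjamini-Hochberg adjustment over all tested probe sets; the script was tested on simulated data. Figures were drawn with matplotlib 3.10.9. Precision is limited by the 3 arrays per group, since arrays give no read depth.

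The members and gene lists were chosen with earlier results of these data known. All 10 members are named at every probe set, the one of highest mean signal standing for a gene; of each list, genes that passed a test, or else those with the 2 highest and 2 lowest 4-OHT changes in replicates 2 and 3 of PAX3-FKHR-ER; and the 5 probe sets most correlated with RASSF4. Same-numbered arrays deviated together, at r of 0.703 to 0.851 within PAX3-FKHR-ER, 0.789 to 0.817 within pK1 and 0.152 to 0.685 between constructs, so the replicate block was fitted as an alternative. Promoters and coordinates come from RefSeq tables of GRCh38.p14.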

Additional observations from a re-analysis of the deposited data

How the results depend on the processing

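Under 22 alternatives (another amount added, no filter, quantile normalization, no trend, fewer groups, the replicate block, replicates 2 and 3, and each of 12 arrays left out), none of the 390 member differences between constructs passed limma's threshold and 28 changed sign, 3 of them for RASSF4. Adding the replicate block to the 12-array fits changed no call, and all counts stayed at 0. With replicates 2 and 3 alone, 13 probe sets differed between constructs with 4-OHT and 1 without it, and 0 passed for 4-OHT in PAX3-FKHR-ER (270 at an unadjusted p under 0.05) and 0 in the lists, so the GADD45A, IGFBP3 and MYOF calls need both choices together; adding the replicate block gave 21 with and 1 without 4-OHT, 186 for 4-OHT in PAX3-FKHR-ER, 7 for the difference of changes and 3 for the lists. With 1 added, RASSF4 between constructs with 4-OHT was 0.049; over arrays left out it ran from -0.37 to 0.57, and the RASSF4 4-OHT change in pK1 from -0.58 to 0.59. STK3 with 4-OHT was 0.0033 with 64 added and 0.051 as the mean of its probe sets; TEAD4 without 4-OHT was -0.0054 with 64 added and -0.0025 after quantile normalization; CCN1 in replicates 2 and 3 was 0.61 with and 0.089 without 4-OHT, whether or not the block was used. Leaving out arrays gave -0.14 to 0.22 for STK3 with and -0.063 to 0.23 without 4-OHT, -0.16 to 0.13 for STK4 without, -0.080 to 0.49 for YAP1 with, -0.23 to 0.63 for WWTR1 with, -0.47 to 0.36 for TEAD4 without, -0.61 to 0.27 for CCN1 with and -0.45 to 0.15 without, and -1.04 to 0.037 for CCN2 with and -0.47 to 0.29 without 4-OHT. The cause of these shifts was not tested.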
